A study of Mus musculus with 6 samples.

Results

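The genes described here are the xenobiotic receptors CAR (Nr1i3) and PXR (Nr1i2), the P450 reductase gene Por, and the cytochrome P450 genes Cyp2b9, Cyp2b10, Cyp2b13, Cyp3a11, Cyp3a13 and Cyp3a25. They were taken by gene symbol, which gave 9 of the 23282 rows of each count file, and all 9 were among the 12505 rows tested. The livers came from 3 samples of mice given atractylodin, a polyacetylene of Atractylodes rhizomes, and 3 of mice given vehicle. All were male C57BL/6N mice by the design text (the labels give C57BL/6) that ate a high-fat diet for 12 weeks from 8 weeks of age. Atractylodin was given by mouth at 10 mg/kg on 5 days per week for the last 4 weeks of the diet, after 8 weeks of diet alone. There was no group on a control diet and none treated with a known activator of CAR or PXR. Each value below is from QuantSeq, which sequences the 3' end of polyadenylated transcripts.

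CAR and PXR are nuclear receptors that sense foreign chemicals, steroids and bile acids in hepatocytes, pair with a retinoid X receptor, and raise the transcription of P450, conjugation and transport genes. CAR is held in the cytosol and can be released by signals that do not bind it, so its mRNA level alone does not give its activity. Cyp2b10 is the classical mouse target of CAR and Cyp3a11 that of PXR, with overlap between the receptors. Cyp2b9 and Cyp2b13 are closely related to Cyp2b10 but are expressed mainly in female liver under the control of the growth hormone pattern, and Por passes electrons from NADPH to every microsomal P450.

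Promoters of 3 Cyp2b and 2 Cyp3a genes are given first. The RefSeq table (GRCm38.p6) held a promoter for all 9 genes, and the windows are the 250 bases before the RefSeq start, ended early where the GENCODE M21 gene begins. Cyp2b9 and Cyp2b13, which both fell with atractylodin, had windows that differed at 2 of 250 positions, shown in capitals. Counted from 1 at the 5' end, with the Cyp2b9 base first, these were T48C and C104T.
Cyp2b9, chr7:26173159-26173408, plus strand: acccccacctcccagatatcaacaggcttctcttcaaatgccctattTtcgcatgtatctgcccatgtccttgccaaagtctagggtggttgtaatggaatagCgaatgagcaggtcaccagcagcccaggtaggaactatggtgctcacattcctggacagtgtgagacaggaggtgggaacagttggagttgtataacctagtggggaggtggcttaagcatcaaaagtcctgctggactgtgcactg
Cyp2b13, chr7:26061245-26061494, plus strand: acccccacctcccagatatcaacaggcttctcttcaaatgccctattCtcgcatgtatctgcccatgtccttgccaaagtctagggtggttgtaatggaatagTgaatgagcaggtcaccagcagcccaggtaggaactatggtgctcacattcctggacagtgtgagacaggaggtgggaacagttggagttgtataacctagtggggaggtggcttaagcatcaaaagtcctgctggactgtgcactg
Cyp2b10 is shown because its level went the other way in all 3 atractylodin libraries; its window of 212 bases holds no receptor core motif and so has no capitals.
Cyp2b10, chr7:25897408-25897619, plus strand: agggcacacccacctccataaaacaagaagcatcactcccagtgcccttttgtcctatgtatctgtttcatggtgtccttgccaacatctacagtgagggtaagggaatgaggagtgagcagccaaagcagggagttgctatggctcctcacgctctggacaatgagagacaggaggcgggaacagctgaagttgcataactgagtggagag
Cyp3a11, which fell, and Cyp3a25, which did not pass, are shown with the receptor core motif AGGTCA or AGTTCA, on either strand, in capitals.
Cyp3a11, chr5:145879965-145880104, minus strand: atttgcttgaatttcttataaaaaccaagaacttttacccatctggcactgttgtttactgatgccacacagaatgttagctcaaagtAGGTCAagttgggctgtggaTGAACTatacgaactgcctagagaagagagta
Cyp3a25, chr5:146009619-146009868, minus strand: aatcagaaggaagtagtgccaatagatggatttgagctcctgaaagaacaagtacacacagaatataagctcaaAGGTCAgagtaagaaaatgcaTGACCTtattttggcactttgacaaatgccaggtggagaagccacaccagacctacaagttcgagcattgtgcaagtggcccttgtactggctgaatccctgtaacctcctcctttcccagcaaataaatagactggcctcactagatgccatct

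Over the full windows of 250 bases, Cyp2b9 and Cyp2b13 were 99.2% identical, and each was 70.99% identical to Cyp2b10. For Cyp2b10 and Cyp3a11 the full windows run on into the GENCODE gene. Cyp3a11 was 55.6% identical to Cyp3a25 and 57.2% identical to Cyp3a13. The core motif AGGTCA or AGTTCA was found once in Cyp2b9 and once in Cyp2b13, at the same 138 to 133 bases before the start. It was found at 2 places each in Cyp3a11 and Cyp3a25, and not in the windows of Cyp2b10, Cyp3a13, Por, Nr1i2 or Nr1i3. Of 27025 mouse promoters of that length, 24.1% held it. Pairs of these cores as direct repeats with 3 or 4 bases between, or as everted repeats with 6 bases between, were found in 3, 6 and 3 of the 27025 promoters and in none of the 9 genes. The element CAAAGTCCA of the hepatocyte receptor HNF4A began 109 bases before the RefSeq start of Cyp3a11, and 0.381% of promoters held it. There it lay beyond the printed stretch, inside the GENCODE gene. It did not occur in the windows of the other 8 genes. It did occur in those of Cyp3a16, Cyp3a41a and Cyp3a41b, which were 76.6%, 72.9% and 72.8% identical to that of Cyp3a11. Enhancers farther from the start were not examined.

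**Figure D1:**
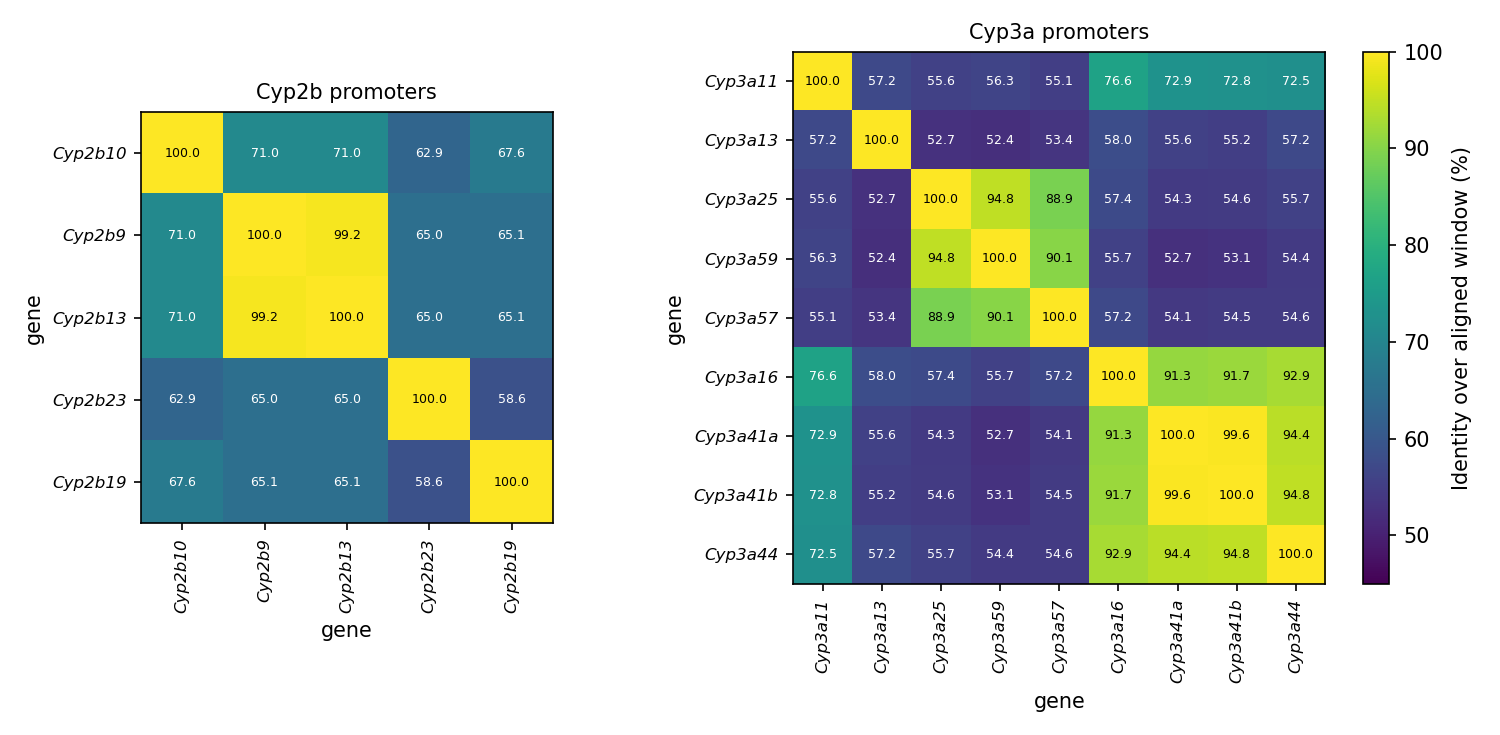
Percent identity between promoter windows (250 bases before the RefSeq start, GRCm38.p6) of the Cyp2b genes on the left and the Cyp3a genes on the right, with each cell giving the value for the genes of its row and column. Cyp2b9 and Cyp2b13 form the 99.2% pair, and Cyp3a25 and Cyp3a59 are 94.8% identical.

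The total count was 9871762 to 12565393 in the atractylodin libraries and 1831461 to 12111553 in the vehicle libraries. Vehicle 1 was the shallowest, and there 3 counts equalled 1.64 CPM (reads of a gene relative to the library size, which was TMM-scaled for the gene values below), against at most 0.304 CPM in the other 5 libraries. Nothing in the labels ties each numbered library to an animal of its own. The p-values therefore cover only the spread among these 6 libraries, which may be technical. In edgeR's quasi-likelihood test, 906 of the 12505 rows passed an adjusted p of 0.05, and 54.1% of those were higher with atractylodin (30.6% when scaled by total counts alone). Albumin (Alb), the defining hepatocyte transcript, was at 47792 to 56104 CPM with atractylodin and 53195 to 55869 CPM with vehicle. The Y-linked gene Ddx3y was at 87.7 CPM or more in every library and Xist at 3.97 CPM or less, as in male tissue.

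Of the 9 genes, 6 passed, where 7.25% of all tested rows did. Nr1i3, Nr1i2 and Por rose (3.92% of rows were called higher), and Cyp2b9, Cyp2b13 and Cyp3a11 fell (3.33% were called lower). Cyp2b10 was higher in every atractylodin library but missed the threshold, and Cyp3a13 and Cyp3a25 did not pass. For 7 of the 9 genes every atractylodin library lay on the same side of every vehicle library, as for 26.2% of tested rows. Bulk RNA cannot tell fewer cells of a type from less RNA per cell.

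Nr1i3, which encodes CAR (GRCm38 chromosome 1, 171213970 to 171220701, plus strand), was at 165, 217 and 195 CPM in the atractylodin libraries, against 138, 118 and 139 CPM in the vehicle libraries. Each atractylodin library was above each vehicle library. Nr1i3 rose 1.46-fold (log2 0.55 ± 0.11 SE, edgeR adjusted p = 0.00449). Its 3' end lies within Tomm40l, a mitochondrial import gene on the opposite strand, and the strand setting of the counting is not given in the sources used here. Tomm40l, named after its values were seen, stood at 364 to 466 CPM with atractylodin and 282 to 318 CPM with vehicle and rose 1.35-fold (adjusted p = 0.0153). Whether reads of either gene were counted for the other where they overlap cannot be told from these files.

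Nr1i2, which encodes PXR (chromosome 16, 38248323 to 38294824, minus strand), was at 121, 111 and 120.1 CPM with atractylodin and 78.1, 78.4 and 71.5 CPM with vehicle. The libraries of each group lay close together, at 118 ± 5.47 CPM with atractylodin and 76.0 ± 3.86 CPM with vehicle (SD, n = 3 each). Nr1i2 rose 1.55-fold (log2 0.63 ± 0.09 SE, adjusted p = 0.000568). The ratio of Nr1i3 to Nr1i2 counts within a library ranged from 1.36 to 1.95 with atractylodin and from 1.503 to 1.94 with vehicle. These ranges overlapped, with a log2 difference of -0.09 (exact permutation p = 0.70).

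Por (chromosome 5, 135670033 to 135735326, plus strand) was at 748, 982 and 878 CPM with atractylodin and 434, 354 and 431 CPM with vehicle. The lowest atractylodin library was well above the highest vehicle library. Por rose 2.14-fold (log2 1.10 ± 0.11 SE, edgeR adjusted p = 2.59e-05). It overlaps a long non-coding RNA and a pseudogene on the opposite strand, neither at its 3' end. The ratio of Por to Nr1i3 counts varied little between libraries of a group, at 4.54, 4.53 and 4.50 with atractylodin and 3.14, 3.00 and 3.10 with vehicle. The log2 difference in this ratio was 0.55, the groups did not overlap, and the exact permutation p was 0.10 (two-sided, the smallest that 3 against 3 allows).

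**Figure D2:**
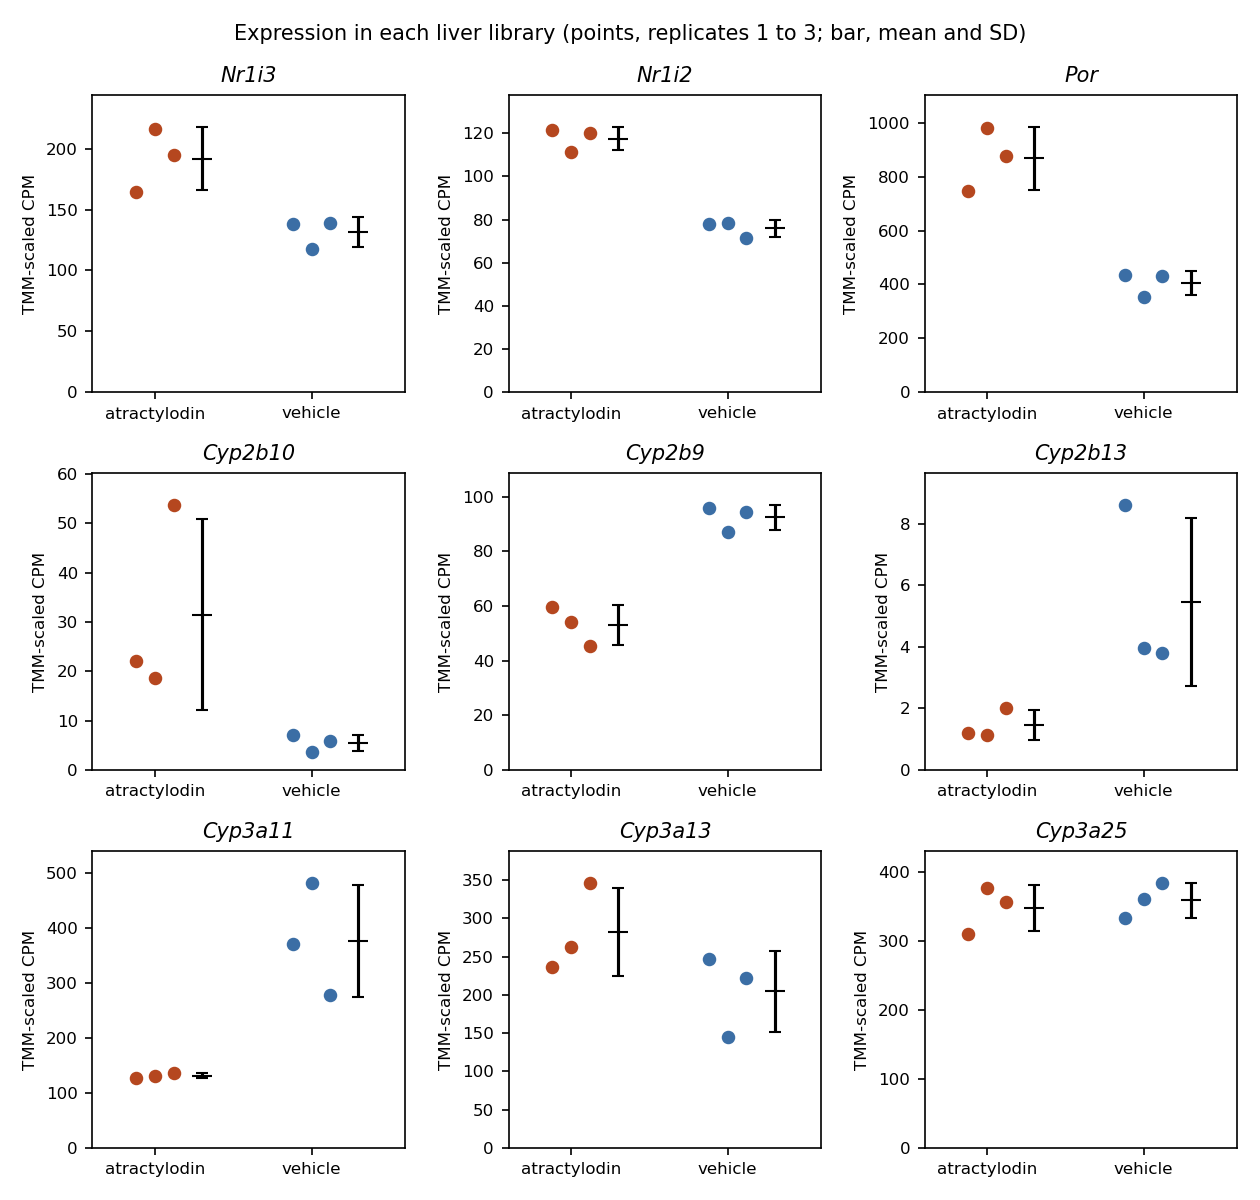
TMM-scaled CPM (vertical axis from 0) of the 9 genes in each liver library, atractylodin on the left and vehicle on the right of each panel. Points are replicates 1 to 3 and the black bar beside them is the mean with its SD. Nr1i3, Nr1i2, Por and Cyp2b10 lie higher, and Cyp2b9, Cyp2b13 and Cyp3a11 lower, in all 3 atractylodin libraries.

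The Cyp2b genes lie in a row on the plus strand of chromosome 7, Cyp2b10 at 25897620 to 25926624, Cyp2b13 at 26061497 to 26096197 and Cyp2b9 at 26173411 to 26210661. Cyp2b10, the CAR target, was at 22.02, 18.7 and 53.8 CPM with atractylodin, from 221, 179 and 644 reads, against 6.998, 3.69 and 5.82 CPM with vehicle, from 13, 43 and 72 reads. Atractylodin 3 was far above the other atractylodin libraries, and even the lowest of them was above every vehicle library. The estimate was 6.26-fold, a log2 fold change of 2.65 ± 0.61 (SE) with an interval of 1.05 to 4.24 (95%). It missed the threshold in edgeR (adjusted p = 0.0871) and passed in DESeq2 (adjusted p = 0.000462) and limma-voom (adjusted p = 0.0148). Without atractylodin 3 the estimate was smaller, 2.00 ± 0.25, and passed (edgeR adjusted p = 0.000105).

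Cyp2b9, a female-biased steroid and drug hydroxylase gene, was at 59.8, 54.0 and 45.3 CPM with atractylodin and 95.8, 87.2 and 94.3 CPM with vehicle. The groups were well apart, and Cyp2b9 fell by 0.80 ± 0.11 on the log2 scale (SE, adjusted p = 0.000319). Cyp2b13, the other female-biased gene, was near the limit of counting, at 1.20, 1.15 and 2.00 CPM with atractylodin, from 12, 11 and 24 reads. With vehicle it was at 8.61, 3.95 and 3.80 CPM, from 16, 46 and 47 reads. Cyp2b13 fell by 1.71 ± 0.43 on the log2 scale (adjusted p = 0.0198), and the call was lost without vehicle 1 (adjusted p = 0.0865), atractylodin 1 (adjusted p = 0.0529) or atractylodin 2 (adjusted p = 0.0605). Cyp2b13 overlaps the pseudogene Rnf170-ps on its own strand, away from its 3' end.

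Within each library the ratio of Cyp2b10 to Cyp2b9 counts, which does not depend on scaling, was 0.368, 0.346 and 1.19 with atractylodin and 0.0730, 0.0423 and 0.0618 with vehicle. The log2 difference was 3.21, without overlap between groups (exact permutation p = 0.10). With Cyp2b10 higher and Cyp2b9 lower in every atractylodin library, this separation was fixed and adds no support of its own. The ratio of Cyp2b13 to Cyp2b9 was 0.0200, 0.0213 and 0.0443 with atractylodin and 0.0899, 0.0453 and 0.0403 with vehicle. Its log2 difference was -1.04 and the groups overlapped (exact permutation p = 0.20, where 3 against 3 cannot go below 0.10), so these libraries do not settle whether Cyp2b13 fell more than Cyp2b9. When the Cyp2b10, Cyp2b9 and Cyp2b13 rows were summed, most reads were those of Cyp2b9 in every library but atractylodin 3. The sum was 83.0, 73.8 and 101.05 CPM with atractylodin and 111, 94.9 and 104 CPM with vehicle and did not pass (log2 -0.25 ± 0.11 SE, adjusted p = 0.205). Cyp2b9 and Cyp2b13 summed alone fell by 0.84 ± 0.11 (adjusted p = 0.000184). Both rows had been called lower and most of these reads were those of Cyp2b9, so that fall adds no support of its own. In none of the 3 genes was a word of 50 bases from the last 300 bases of the longest coding transcript found in a transcript of another gene.

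**Figure D3:**
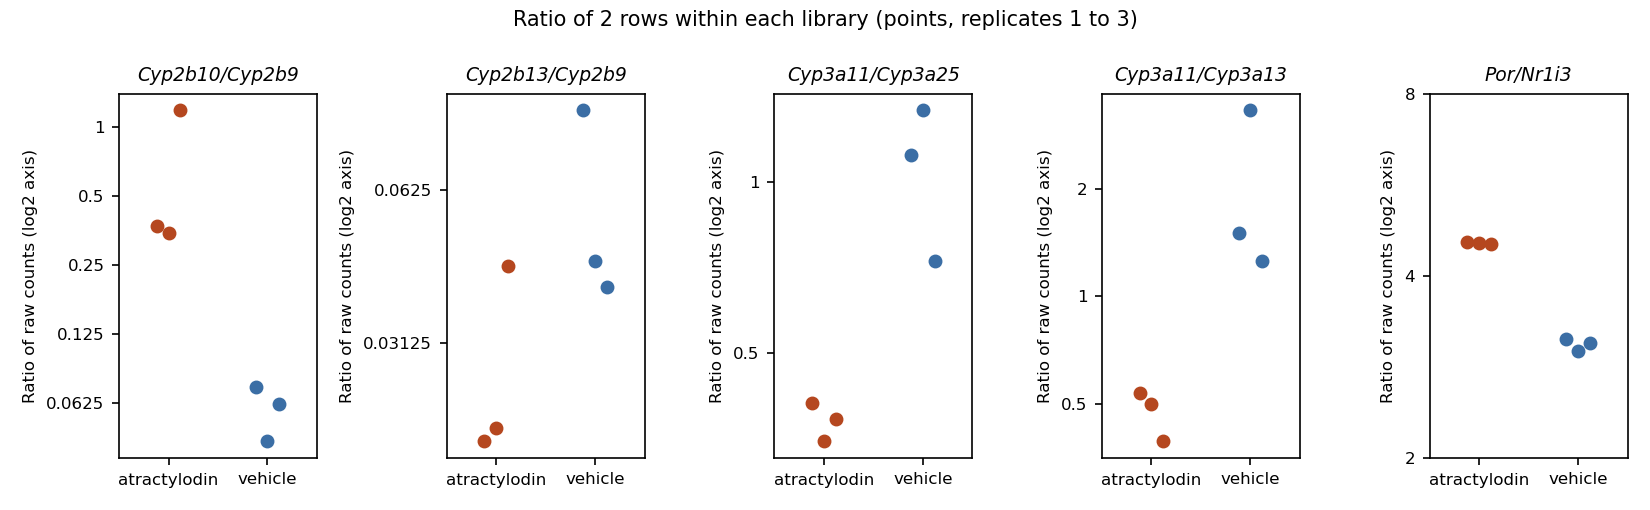
Ratio of the raw counts of a pair of rows within each library (log2 axis, a scale of its own in each panel), atractylodin on the left and vehicle on the right; points are replicates 1 to 3. The groups are separate for Cyp2b10/Cyp2b9, both Cyp3a11 ratios and Por/Nr1i3, and overlap for Cyp2b13/Cyp2b9.

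Cyp3a11 (chromosome 5, 145854426 to 145879964, minus strand), the PXR target and a main drug and steroid hydroxylase of mouse liver, was at 127, 132 and 136 CPM with atractylodin and 370.4, 482 and 278 CPM with vehicle. The atractylodin libraries were nearly alike (SD 4.55 CPM) and the vehicle libraries spread widely (SD 102 CPM). Cyp3a11 fell to a level 2.87-fold lower (log2 -1.52 ± 0.18 SE, edgeR adjusted p = 0.0032). Of its 251 words of 50 bases at the 3' end, 2 occur in the pseudogene Cyp3a63-ps. Those of Cyp3a13 and Cyp3a25 occur in no other gene.

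Cyp3a13 (chromosome 5, 137892932 to 137921619, minus strand) lies apart from the Cyp3a cluster and was at 236, 263 and 346 CPM with atractylodin and 247, 145 and 222 CPM with vehicle. Vehicle 1 lay within the range of the atractylodin libraries. The log2 fold change was 0.48 ± 0.25 (SE), with an interval of -0.15 to 1.11 (95%) and an adjusted p of 0.358. Cyp3a25 (in the cluster, 145977194 to 146009618, minus strand) was at 310.4, 377 and 356 CPM with atractylodin and 333, 360.0 and 383 CPM with vehicle. The groups overlapped, the log2 fold change was -0.05 ± 0.10 (SE, adjusted p = 0.827), and its interval was -0.25 to 0.16.

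Within libraries, Cyp3a11 was lower relative to the other Cyp3a genes in every atractylodin library. The ratio of Cyp3a11 to Cyp3a25 counts was 0.409, 0.349 and 0.382 with atractylodin and 1.11, 1.34 and 0.727 with vehicle. The log2 difference was -1.44, and that of Cyp3a11 to Cyp3a13 was -1.96. Neither pair of groups overlapped, each with an exact permutation p of 0.10, while Cyp3a13 to Cyp3a25 gave 0.53 with overlap (exact permutation p = 0.20). Over the 9 ratios computed, the adjusted p was 0.15 for each of the 6 without overlap. The sum of Cyp3a11, Cyp3a13 and Cyp3a25 was 674, 771 and 838 CPM with atractylodin and 949.6, 987 and 883 CPM with vehicle, and did not pass (log2 -0.30 ± 0.10 SE, adjusted p = 0.0769).

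The remaining rows of both subfamilies were at low counts. Cyp2b23 stood at 3.34 to 5.18 CPM with atractylodin and 2.49 to 3.96 CPM with vehicle (adjusted p = 0.618), and Cyp2b19 had a single read, in vehicle 3. Cyp3a59 stood at 6.18, 5.85 and 7.77 CPM with atractylodin and 12.4, 12.4 and 8.25 CPM with vehicle and did not pass (log2 -0.70 ± 0.24 SE, adjusted p = 0.0872). Its promoter window is 94.8% identical to that of Cyp3a25, and the last 300 bases of their transcripts are 94.35% identical, though with no shared word of 50 bases. The female-biased genes Cyp3a41a, Cyp3a41b, Cyp3a44 and Cyp3a16 and the gene Cyp3a57 had 0 to 14 reads in any library and were not tested. Cyp3a41a and Cyp3a41b share all 251 words at their 3' ends, so their reads cannot be told apart.

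**Figure D4:**
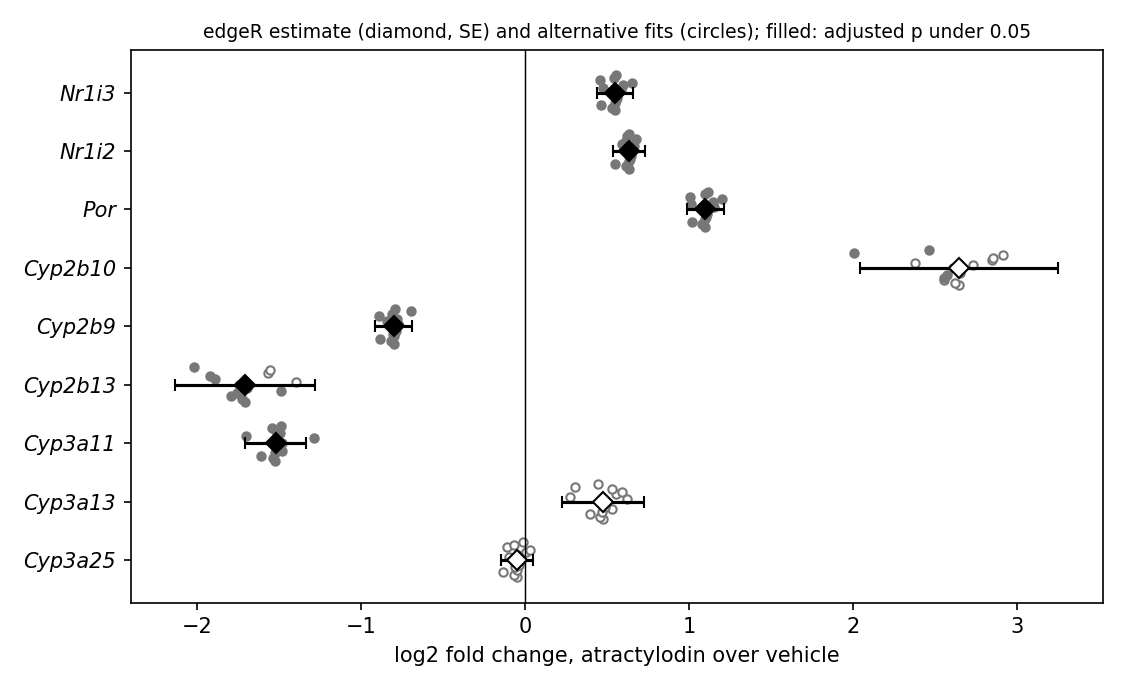
log2 fold change of atractylodin over vehicle (horizontal axis) for the 9 genes, with the edgeR estimate and its SE as a diamond and the 15 alternative fits (13 for Cyp2b13) as circles, filled where the adjusted p was under 0.05. Nr1i3, Nr1i2, Por, Cyp2b9 and Cyp3a11 are filled throughout, Cyp2b10 and Cyp2b13 are filled in part, and Cyp3a13 and Cyp3a25 are open throughout.

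Of 23 partners and co-regulators of the receptors tested, 3 rose, 1 fell and 19 did not pass, where 7.25% of all tested rows were called. Their median log2 fold change was 0.16, against -0.0015 over all tested rows. Hnf4a, a hepatocyte nuclear receptor that supports P450 transcription, was at 462, 439 and 533 CPM with atractylodin and 321, 270.2 and 291 CPM with vehicle and rose 1.63-fold (edgeR adjusted p = 0.000405). Foxo1, a forkhead factor that co-activates CAR and PXR, rose 1.59-fold (adjusted p = 0.00676), and the co-repressor gene Ncor1 rose 1.26-fold (adjusted p = 0.0271). The Ncor1 call depended on every library but atractylodin 2, with adjusted p up to 0.135 when 1 was omitted. Rxrg, a retinoid X receptor gene, averaged 5.19 ± 1.61 CPM with atractylodin and 12.1 ± 0.702 CPM with vehicle (SD, n = 3 each) and fell by 1.22 on the log2 scale (adjusted p = 0.00559, against 0.0538 when libraries were thinned to the depth of vehicle 1). Rxra, the main partner of CAR and PXR in liver and named after its values were seen, stood at 237 to 251 CPM with atractylodin and 204 to 227 CPM with vehicle and did not pass (adjusted p = 0.274).

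Of 14 genes that hold CAR in the cytosol or act on its release, 1 was called and 13 did not pass, about the 7.25% called over all tested rows, and the median log2 fold change was 0.12. The gene called was the chaperone gene Hsp90ab1, which averaged 1547 ± 121 CPM with atractylodin and 1214 ± 137 CPM with vehicle (SD, n = 3 each, adjusted p = 0.0484). It was no longer called in 10 of the 15 alternative fits, among them those without vehicle 1, vehicle 3, atractylodin 1 or atractylodin 2 (adjusted p up to 0.224), limma-voom, upper quartile and total-count scaling, and thinning to the depth of vehicle 1.

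Other targets of CAR and PXR went mostly up where they passed. Of 31 tested, 6 rose, 1 fell and 24 did not pass, where 7.25% of all tested rows were called. Their median log2 fold change was 0.26. Ephx1, the microsomal epoxide hydrolase gene, was at 515, 520.2 and 501 CPM with atractylodin and 219, 278 and 289.9 CPM with vehicle, and rose 1.94-fold (edgeR adjusted p = 3.31e-05). Ugt2b34, a glucuronosyltransferase gene, rose 1.64-fold (adjusted p = 0.00564), and Cyp2a5, a coumarin hydroxylase gene, 3.62-fold (adjusted p = 0.0158). Cyp2a4, treated below, was also among the 6. The call of Cyp2a5 was lost without atractylodin 2 (adjusted p = 0.0539). Aldh1a7, an aldehyde dehydrogenase gene, fell by 0.38 on the log2 scale (adjusted p = 0.0208), but was not called without any 1 of the vehicle libraries or atractylodin 2 (adjusted p up to 0.0944). Cyp3a11, itself a target of both receptors, fell while these 6 rose, and the list was not tested as a whole.

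Genes of electron transfer to P450 enzymes and of haem synthesis and breakdown went both ways. Of 17 tested, 3 rose and 2 fell, where 7.25% of all tested rows were called. Their median log2 fold change was -0.05. Cyb5a, encoding cytochrome b5, was at 2175, 2204 and 2114 CPM with atractylodin and 1818, 1730.5 and 1512 CPM with vehicle and rose 1.28-fold (adjusted p = 0.031). Cyb5r3, the reductase of cytochrome b5, was at 232, 236 and 233 CPM with atractylodin and 315, 365 and 288 CPM with vehicle, and fell by 0.47 on the log2 scale (adjusted p = 0.00636), opposite to Por. Fech, whose product inserts iron to form haem, rose 1.29-fold (adjusted p = 0.0182), and Blvrb, a biliverdin reductase gene, rose 1.47-fold (adjusted p = 0.00185). Alad, an early enzyme of haem synthesis, fell by 0.41 on the log2 scale (adjusted p = 0.0147). Cyb5a was not called without vehicle 1, vehicle 3 or any atractylodin library (adjusted p up to 0.189). Fech was not called without any 1 of the vehicle libraries or atractylodin 1 (up to 0.0998), nor Alad without vehicle 1, vehicle 3 or atractylodin 1 (up to 0.0629). Alas1, the rate-limiting enzyme of haem synthesis and a CAR target, named after its values were seen, stood at 637, 668 and 689.9 CPM with atractylodin and 244, 468 and 291 CPM with vehicle and did not pass (adjusted p = 0.0921).

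Cyp2b9 and Cyp2b13 belong to the female-biased genes of mouse liver, which did not move as a block. Of 8 tested, 3 rose (Cyp2a4, Fmo2 and Trim24) and 2 fell, where 7.25% of all tested rows were called. The falls were those of Cyp2b9 and Cyp2b13. The flavin monooxygenase gene Fmo2 was at 12.9, 18.3 and 13.9 CPM with atractylodin and 9.15, 7.73 and 6.95 CPM with vehicle (adjusted p = 0.00742). Trim24, a nuclear receptor co-regulator gene, rose 1.82-fold (adjusted p = 0.00782). Cyp2a4, a near-identical copy of Cyp2a5 so that reads of either may be counted under the other, rose 3.61-fold (adjusted p = 0.031), but was not called without vehicle 3, atractylodin 2 or atractylodin 3 (up to 0.0968). Fmo2 was not called without vehicle 3 (adjusted p = 0.0615) or after thinning to the depth of vehicle 1 (adjusted p = 0.12). Of 16 male-biased genes 6 rose and 1 fell, beside the same 7.25%, with a median log2 fold change of 0.34. The major urinary protein genes Mup7 and Mup1 rose 2.16-fold and 1.68-fold (adjusted p = 0.00186 and 0.000712), though Mup genes are close copies whose reads may have been shared. Cyp7b1, an oxysterol hydroxylase gene, rose 1.67-fold (adjusted p = 0.0148, and up to 0.0865 without a vehicle library or atractylodin 2), and Elovl3, a fatty acid elongase gene, fell by 1.00 on the log2 scale (adjusted p = 0.00283).

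**Figure D5:**
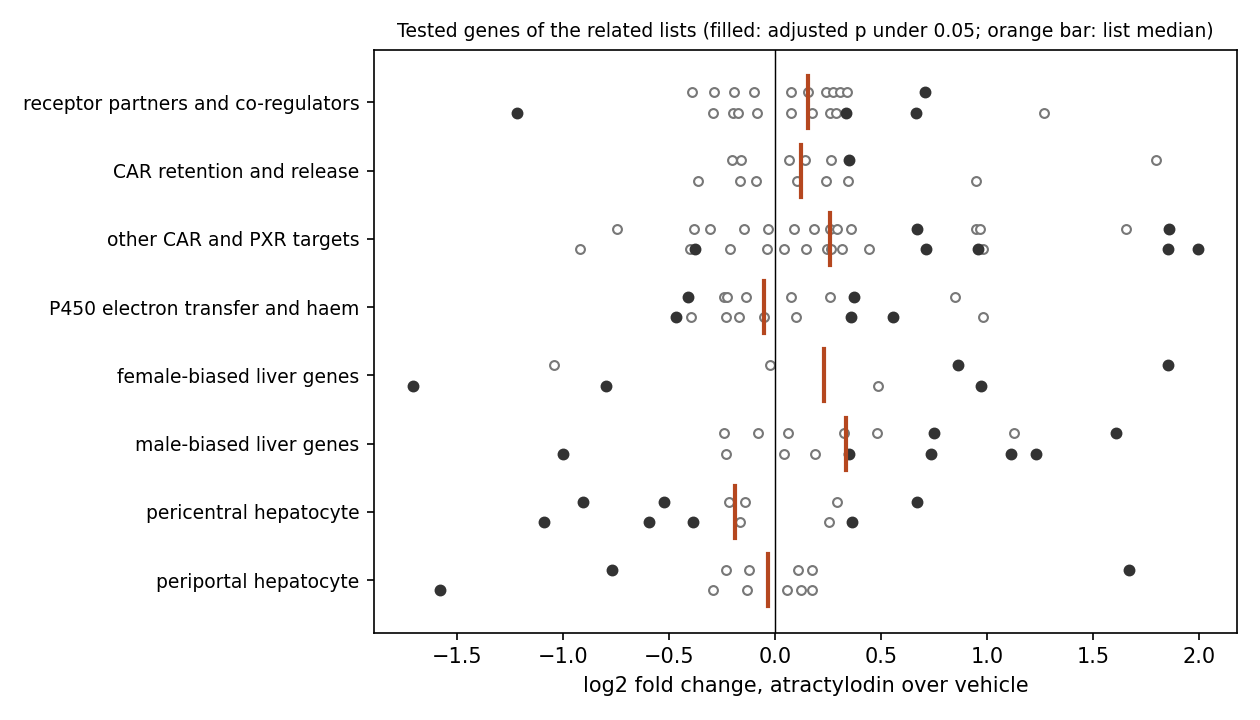
log2 fold change of atractylodin over vehicle (horizontal axis) for every tested gene of 8 related lists, filled where the edgeR adjusted p was under 0.05, with the median of each list as an orange bar. Each list holds values on both sides of 0, and the medians lie between -0.19 and 0.34.

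CAR, Por and many Cyp2b, Cyp2c and Cyp3a transcripts are known to be most abundant in hepatocytes near the central vein. Of 12 pericentral markers 2 rose and 5 fell (median log2 fold change -0.19), and of 12 periportal markers 1 rose and 2 fell (median -0.03). Over all tested rows, 7.25% were called. The summed pericentral markers were at 9562 to 11187 CPM with atractylodin and 9783 to 10284 CPM with vehicle. Cyp2e1, the most abundant of them, averaged 6558 ± 696 CPM with atractylodin and 5505 ± 255 CPM with vehicle (SD, n = 3 each, adjusted p = 0.154), and Lect2 fell by 0.60 on the log2 scale (adjusted p = 0.00257). The summed periportal markers were at 5869.5 to 6678 CPM with atractylodin and 3564 to 4061 CPM with vehicle. Pck1, the most abundant of them, averaged 3644 ± 305 CPM with atractylodin and 1145 ± 301 CPM with vehicle (SD, n = 3 each) and rose (adjusted p = 0.00247). The higher sum came from Pck1 and does not describe the periportal markers as a set. Hal (log2 -0.77, adjusted p = 0.00278) and Aldh1b1 (log2 -1.58, adjusted p = 0.0142) fell, and the other 9 did not pass. The part of any shift between zones in the members' values was not tested.

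Markers of other cell types were measured in the same libraries, where 7.25% of all tested rows were called. Of 11 markers of small intestine, where Cyp2b10 and Cyp3a13 are also expressed, Alpi, Rbp2, Krt20, Cdx1 and Cdx2 had no read in any library. Their sum was 152 to 171 CPM with atractylodin and 123 to 165 CPM with vehicle, most of it from Fabp2 (adjusted p = 0.431), and neither of the 2 tested markers passed. Of 4 cholangiocyte markers tested, Sox9, Spp1 and Tstd1 fell (log2 -0.92, -1.16 and -1.13). Epcam did not pass (log2 0.05, adjusted p = 0.969), and Krt7, Krt19 and Cldn4 were too low to be tested. The sum of all 7 was 33.1 to 35.7 CPM with atractylodin and 64.8 to 81.3 CPM with vehicle, most of it from the 3 that fell. Of 8 endothelial markers 1 rose and 2 fell, and their sum was 339 to 373 CPM with atractylodin and 382 to 396 CPM with vehicle. Of the falls, that of Ptprb was lost in each fit that omitted a library (adjusted p up to 0.155), in DESeq2 and in limma-voom, and that of Stab2 without any library but atractylodin 1 (adjusted p up to 0.121). Acinar markers of the pancreas summed to 15.4 to 36.6 CPM with atractylodin and 15.3 to 23.8 CPM with vehicle. Among them Cpb1 rose 3.39-fold (adjusted p = 0.0319, lost without vehicle 3, atractylodin 1 or atractylodin 2, up to 0.185). Cela1, the most abundant of them, went the other way and did not pass (log2 -0.67 ± 0.22 SE, adjusted p = 0.0826). Cela1 stood at 10.2 to 13.5 CPM with atractylodin and 12.4 to 22.8 CPM with vehicle, most of the vehicle sum. Cela2a, named after its values were seen, had 58, 6 and 23 reads with atractylodin and 0, 1 and 0 with vehicle and was not tested. Lymphocyte markers summed to 2.30 to 3.19 CPM with atractylodin and 6.46 to 10.7 CPM with vehicle. Themis, the only one tested, fell by 2.28 on the log2 scale (adjusted p = 0.00782). It averaged 1.37 CPM with atractylodin and 6.47 CPM with vehicle, most of the sum there. The other lymphocyte markers had at most 9 reads in any library, so the sum largely repeats Themis. Erythroid markers summed to 1465 to 2858 CPM with atractylodin and 1819 to 2324 CPM with vehicle. Of 5 tested, Alas2, the erythroid enzyme that begins haem synthesis, fell by 0.68 on the log2 scale (adjusted p = 0.000845). The other 4, all globin genes, did not pass (log2 -0.01 to 0.43), among them Hba-a1, the most abundant (adjusted p = 0.987). The part of these cells in the members' values was not tested.

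The genes whose pattern over the 6 libraries was most like that of each called gene were found by the root mean square difference of log2 CPM after centring each gene on its own mean, among genes whose mean log2 CPM reached 2. For Nr1i2 they were Ankrd11, Chd2 and Dnajc2 (differences of 0.0532, 0.0612 and 0.0664 log2 units, against a median of 0.373 over 9658 genes). For Nr1i3 they were Ccnf, Rheb and Ppp1r15b (0.061 to 0.0699), and for Por Ikbkg, Lonrf3 and Bach1 (0.119 to 0.153). No P450 gene was among these 9. For Cyp2b9 they were Hal, Trim2 and Stxbp6 (0.0747 to 0.079), for Cyp2b13 Gm6484, Sdf2l1 and Hectd2 (0.27 to 0.384), and for Cyp3a11 Slc16a6, Col5a1 and Olfml1 (0.144 to 0.188). The neighbours of Cyp2b13 were the most distant, and with so many candidates and 6 libraries such likeness is a description of these libraries.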

How the data were processed

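Liver RNA was extracted with Trizol and 500 ng went into each Lexogen QuantSeq library, per the labels' protocols. The values deposited by the authors are raw read counts for each gene symbol. Bowtie2, bedtools and mm10 are named, per the submitters' processing notes; their versions, the annotation, the strand setting and the handling of reads that match several genes are not given in the sources used here. Floors cover counting error only, since the use of molecular identifiers is not given either.

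Rows were filtered with filterByExpr, scaled by TMM and tested with the robust quasi-likelihood test of edgeR 4.0.16 (R 4.3.3), without covariates, with Benjamini-Hochberg adjustment over all 12505 tested rows. The SE of a log2 fold change was its size over the root of F, and 95% intervals use the prior and residual degrees of freedom of that fit. The procedure was tested on simulated data. The chi-square statistic per degree of freedom was at least 2.75 for every pair of libraries, so no library was counted as a copy. Ratios of counts within a library were compared by two-sided exact permutation tests of their log2 values. Alternatives used DESeq2 1.42.0 and limma 3.58.1 (voom). The files held 23282 rows, 44 of them with a repeated symbol, none of these a member. The labels give no batch or date, so no split by batch was made.

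Positions, transcripts and overlaps were read from GENCODE M21 (GRCm38, that is mm10), and promoters from RefSeq (GRCm38.p6). Identities are global alignments in Biopython 1.88, and figures used matplotlib 3.10.9. The members, gene lists and tests were chosen with earlier results of these data known. The rule for named genes took all 9 members and every other Cyp2b and Cyp3a row. It took up to 3 passing genes of each related list in each direction, in order of p. Of described marker lists it took the most abundant marker and that with the smallest p. The 3 nearest patterns of each called member were also taken. Other genes are said to be named after their values were seen, or fill out a marker list, as Aldh1b1, Spp1 and Epcam do. Ddx3y and Xist were also outside the rule.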

Additional observations from a re-analysis of the deposited data

How the results depend on the processing

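The receptors, Por, Cyp2b9 and Cyp3a11 kept their direction and passed in all 15 alternative fits. These were RLE, upper quartile or total-count scaling, DESeq2, limma-voom, no filter on low counts, each library left out, a replicate block, a mean CPM filter of 5, and, chosen after seeing the data, all libraries thinned to the 1831461 counts of vehicle 1. The count of called members was 5 to 7 throughout. Cyp2b10 stayed above 0 (log2 2.00 to 2.91, adjusted p up to 0.27) and also passed with the replicate block (log2 2.61, adjusted p = 7.66e-05) and after thinning (log2 2.46, adjusted p = 0.00519). Same-numbered libraries did not deviate together from their group means (correlations of -0.027, -0.089 and 0.022), so the numbers are not taken to pair samples; with the block 811 genes and 7 members were called. Over the fits that left out a library, 467 to 751 genes were called, the lowest without vehicle 3 and 494 without vehicle 1, and after thinning 530, where 8925 rows were tested. The Cyp2b sum ranged from -0.38 to -0.15 and the Cyp3a sum from -0.38 to -0.22 when a library was left out, and both passed without atractylodin 3. The Cyp2b sum without Cyp2b10, made mostly of Cyp2b9 reads, passed at -0.84, which adds no support beyond the rows themselves. The Cyp3a sum passed under total counts alone (-0.39, adjusted p = 0.0223) and without a filter (-0.29, adjusted p = 0.0412). The cause of these changes was not tested. Over the 71 genes taken by the rule for named genes and their 1052 alternative values, 94 lost a call, 23 gained a call and no called gene reversed. The value of Cyp3a25, never called, ranged from -0.13 to 0.03. The low counts of vehicle 1, with 13 reads for Cyp2b10 and 16 for Cyp2b13, limit both genes.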
